A study of Rhipicephalus microplus with 8 samples.

Results

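A pair of probes on a cattle tick array is described here, one named Contig2438_TBP_TATA and one named Contig803_RiboL4. They were chosen by name as candidate reference transcripts and are 2 of 13459 probes in the deposited tables. The rule for the choice used no measured value, but earlier results of these data were known when it was set. Both have deposited fold changes, as do 10695 of the 13459 probes. The names stand for TATA-binding protein (TBP) and ribosomal protein L4 (RiboL4). Only 2 other probe names carry a gene word, Contig8418_EF1a (elongation factor 1 alpha) and Contig3641_His3A (histone), and neither of these has a deposited fold change. The files do not pair the contigs with gene models, and what each probe detects rests on its name alone.

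The study profiled transcripts of feeding immature stages of Rhipicephalus microplus, a tick that takes its larval, nymphal and adult blood meals on a single animal. Larvae (day 4 of infestation) and nymphs (day 7) were used as whole bodies of mixed sex, both of the Mozambique strain fed on Holstein-Friesian cattle, and their cDNA was labelled with Cy5. On all 8 arrays they were hybridised against 1 Cy3-labelled reference pool of the same strain. The pool combined whole ticks of days 4, 5, 7, 13 and 15 with adult female tissues of day 20. Each stage had 2 biological replicates with 2 arrays each, and the labels do not say whether the replicates came from separate animals, so each p-value covers only the spread seen between these samples. The authors' 7 comparison tables add 3 groups coded G, O and S, for which the labels give no tissue, age or replicate number. No dye was swapped, and a dye bias of a probe cancels between groups only if every array carries it equally.

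TATA-binding protein recognises the TATA element of promoters as a subunit of TFIID and also takes part in transcription by RNA polymerases I and III. Ribosomal protein L4 is a structural component of the large ribosomal subunit. Transcripts of both are widely used as references in quantitative PCR, where a target is read relative to a transcript assumed to stay level across samples. On these arrays a level is always a log2 ratio to the pool. A probe can therefore be steady only relative to that pool and under a given scaling of the arrays.

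The RiboL4 probe moved little between the 5 groups and the TBP probe moved less than the median probe but by more than 2-fold. Each group's level was rebuilt from the authors' deposited log2 fold changes and expressed relative to the mean of the 5 groups. From its highest to its lowest group, RiboL4 spanned 0.51 on the log2 scale, a 1.42-fold difference, and 4.5% of the 10695 probes spanned less. TBP spanned 1.17 on the log2 scale, or 2.25-fold, and 36.9% of the probes spanned less. The median span over the probes was 1.43, with quartiles of 0.95 and 2.12. By the SD over the 5 groups, 5.58% of the probes moved less than RiboL4 (SD 0.22) and 32.5% less than TBP (SD 0.44), against a median SD of 0.57. A span under 1.5-fold was seen for 765 probes, 7.15% of the total, RiboL4 among them. A span under 2-fold was seen for 2930 probes, 27.4% of the total, and TBP was not among these. These are descriptions without a test, since the coded groups have no arrays here.

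**Figure D1:**
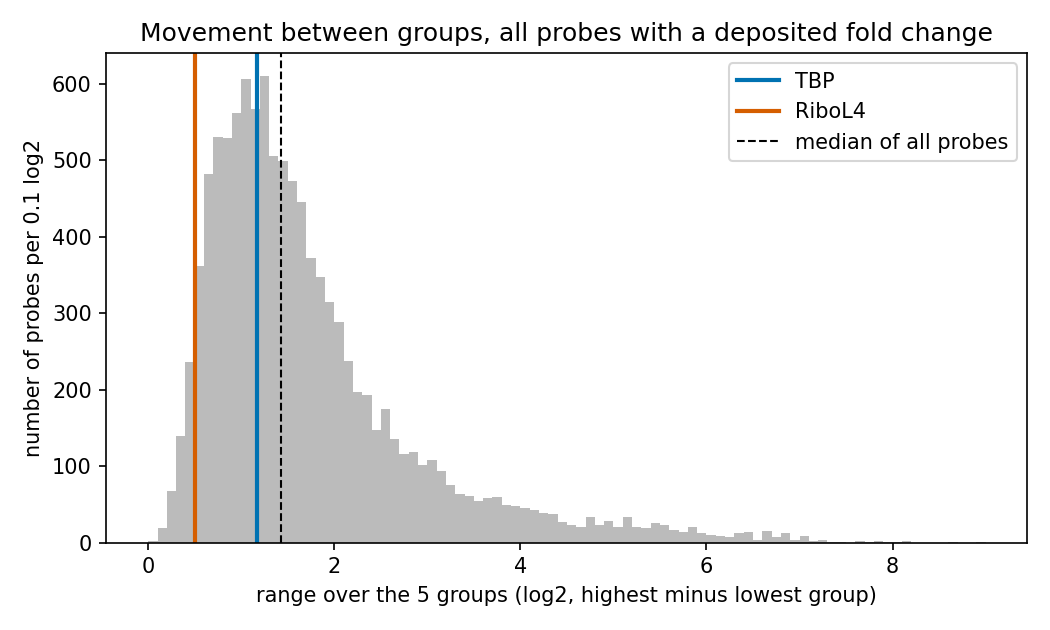
Number of probes (y axis, per 0.1 log2) by the range of their 5 group levels (x axis, log2), for the 10695 probes with a deposited fold change. The RiboL4 line at 0.51 lies in the left tail of the distribution, and the TBP line at 1.17 lies to the left of the dashed median at 1.43.

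The levels of TBP were ordered O, larvae, G, S and nymphs, from highest to lowest. They stood at 0.65 in O, 0.16 in larvae, -0.06 in G, -0.23 in S and -0.52 in nymphs, on the log2 scale relative to the mean of the 5 groups. Among the 3 neighbouring steps in this order that have a deposited comparison, the step from O to larvae passed the 0.05 threshold (adjusted p = 0.00158 in the authors' deposited table). Steps from larvae to G and from S to nymphs did not pass, with adjusted p of 0.134 and 0.0829 in the authors' deposited tables. G against S has no table. Group O set much of the span of TBP. Without it the span was 0.68, and 26.4% of the probes then spanned less over the same 4 groups.

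The levels of RiboL4 were ordered S, G, nymphs, O and larvae. They stood at 0.27 in S, 0.17 in G, -0.01 in nymphs, -0.18 in O and -0.24 in larvae, relative to the mean of the 5 groups on the log2 scale. None of the 3 neighbouring steps that have a deposited comparison passed, with adjusted p of 0.151 for G against nymphs, 0.173 for nymphs against O and 0.631 for O against larvae in the authors' deposited tables. S against G has no table. Leaving out group O did not shorten the span of RiboL4, which runs from larvae to S. Over the other 4 groups 13.9% of the probes spanned less.

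**Figure D2:**
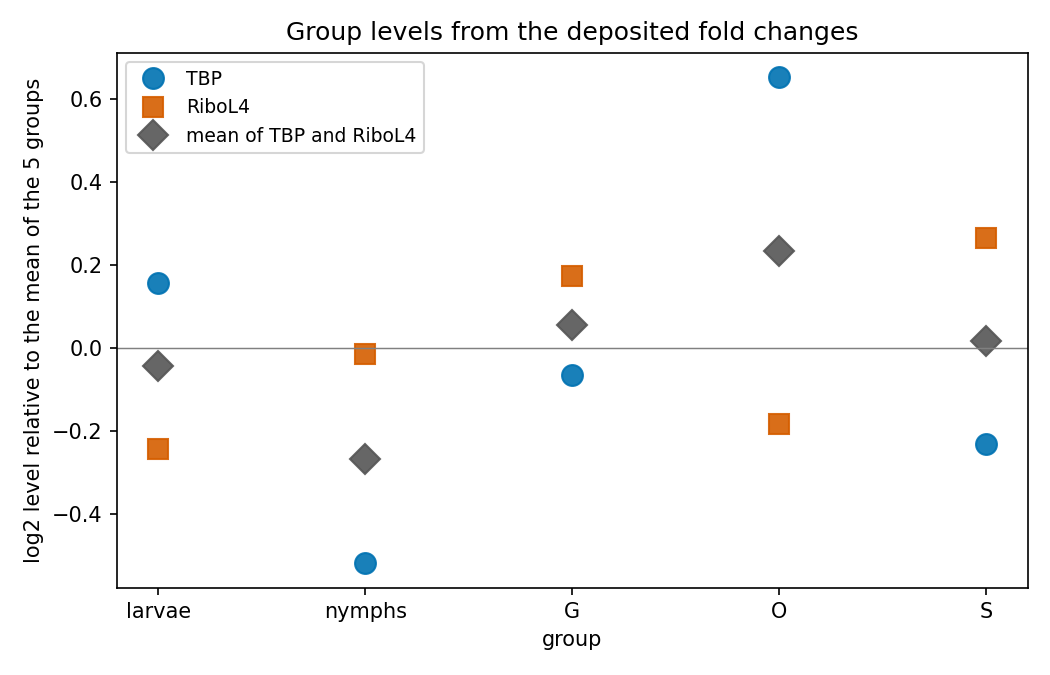
Log2 level of each probe (y axis, relative to the mean of the 5 groups) in larvae, nymphs and the coded groups G, O and S (x axis), rebuilt from the deposited fold changes, with the mean of both probes as diamonds and no error bars because the tables give none. TBP is highest in O at 0.65 and lowest in nymphs at -0.52, while RiboL4 stays between -0.24 and 0.27.

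In the authors' deposited tables, TBP passed the adjusted p of 0.05 in 5 of the 7 comparisons and RiboL4 in 3. Over the 10695 probes, the share past it in the authors' deposited tables was 44.2% for larvae against nymphs, 60.1% for larvae against G, 71.5% for larvae against O and 52% for larvae against S. It was 56.1% for G against nymphs, 73.2% for O against nymphs and 49.3% for S against nymphs. The median probe passed in 4 comparisons. As many calls as TBP or more were made for 45.4% of the probes, and as few as RiboL4 or fewer for 33%. The comparisons share larva or nymph arrays, so these counts are not counts of independent events. The deposited larvae against nymph fold change of TBP weights technical repeats like separate samples. With technical repeats averaged, TBP did not pass between larvae and nymphs (limma, adjusted p = 0.117 on all 8 arrays and 0.0967 on the arrays that the authors used). With all 8 arrays taken as independent, the adjusted p was 0.0138 (limma), against 0.000564 in the authors' deposited table. These fits hold larva and nymph arrays only, so they may differ from the authors' fit in more than the repeats.

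The largest deposited fold change of TBP was between O and nymphs. It was 2.25-fold higher in O, which is 1.17 on the log2 scale (adjusted p = 2.85e-07 in the authors' deposited table), and 62.3% of the probes differed by less in that comparison. Larvae exceeded nymphs 1.60-fold in TBP (log2 fold change 0.68, adjusted p = 0.000564 in the authors' deposited table), and here 69.1% of the probes differed by less. It was 1.41-fold lower in larvae than in O, 1.31-fold higher in larvae than in S and 1.37-fold higher in G than in nymphs, with adjusted p of 0.00158, 0.0142 and 0.00771 in the authors' deposited tables. The differences between larvae and G and between S and nymphs, of 0.22 and 0.29 on the log2 scale, did not pass.

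For RiboL4, all 3 deposited comparisons past the threshold were below 1.5-fold. RiboL4 was 1.42-fold lower in larvae than in S (log2 fold change -0.51, adjusted p = 0.000706 in the authors' deposited table) and 1.34-fold lower in larvae than in G (log2 fold change -0.42, adjusted p = 0.00277). It was 1.21-fold higher in S than in nymphs (adjusted p = 0.0409, also from the authors' deposited table). Log2 fold changes of RiboL4 in the other 4 comparisons, which did not pass, were -0.23 for larvae minus nymphs, -0.06 for larvae minus O, 0.19 for G minus nymphs and -0.17 for O minus nymphs.

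The low p-values of RiboL4 go with small changes. Among the 859 other probes whose larvae against S log2 fold change was within 0.05 of the size of that of RiboL4, 3.49% had a lower adjusted p in the same deposited table of the authors. For larvae against G the share was 3.2% of 781 probes. A lower adjusted p than that of TBP was held by 13.9% of the 410 probes of like size in O against nymphs. In larvae against nymphs the share was 10.6% of 718. In larvae against O the order of the probes was the reverse, where 18.6% of 641 probes had a lower adjusted p than RiboL4 and 12.1% of 651 a lower one than TBP. The tables hold no standard errors, so the authors' precision for the coded groups was viewed only through these adjusted p-values. The unadjusted p-values deposited for larvae against O were not used.

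Set against all probes pair by pair, RiboL4 differed by less than the median probe in 9 of the 10 pairs of groups and TBP in 6. The 3 pairs among the coded groups were obtained by subtraction and have no p-value. The exception for RiboL4 was larvae against S, where 50.9% of the probes differed by less. With the fold changes as deposited, the pair in which it moved least was larvae and O, with 3.59% of the probes below it. The smallest share for TBP was 19% for larvae against G. Centring each comparison on its median over the probes, which moved the comparisons with O by 0.10 to 0.18, turned the sign of no pair for either probe. It did move the larvae minus O difference of RiboL4 from -0.06 to -0.20, with 13.1% of the probes below it, and the least moved pair was then O and nymphs at -0.06, with 3.94% below it.

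**Figure D3:**
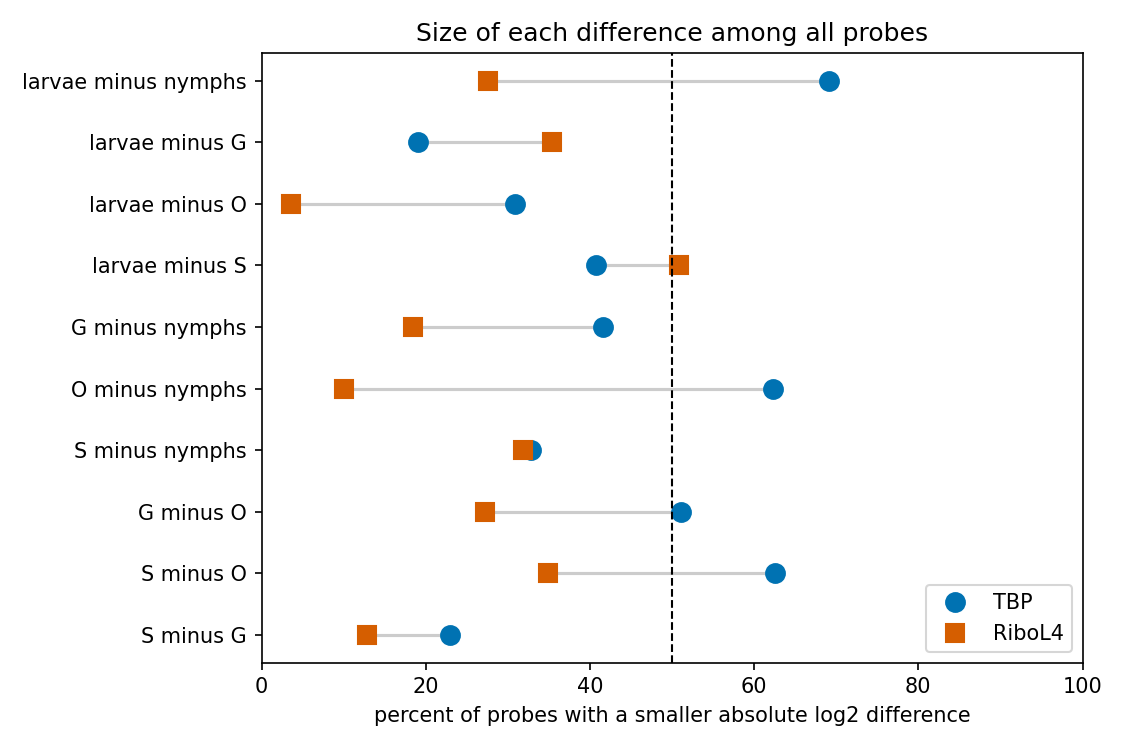
For each of the 10 pairs of groups (y axis), the percent of the 10695 probes with a smaller absolute log2 difference (x axis) than TBP (circles) and RiboL4 (squares), with the dashed line at the median probe. RiboL4 lies to the left of the line in 9 pairs, and TBP lies to the right of it in larvae against nymphs, O against nymphs, G against O and S against O.

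The larvae and nymph arrays give the values behind 1 of these comparisons. For TBP the log2 ratio to the pool was 0.08 and -0.02 on the arrays of larva replicate 1 and 0.36 and 0.03 on those of replicate 2. In nymphs it was -0.65 and -0.45 on the arrays of replicate 1 and -0.59 and -0.24 on those of replicate 2. Every larva array of TBP lay above every nymph array, as was the case for 30.1% of the 13459 features, in the ratios as deposited. With each array centred on its median over all features, the repeat array of nymph replicate 2 stood at -0.18, above 3 of the 4 larva arrays, which stood at -0.24, -0.22 and -0.21. Centred on the joined features, the larva arrays stayed above the nymph arrays, from -0.04 upward against at most -0.18. The share of features that separate in this way after centring was not counted. Because no dye was swapped, a level above or below the pool cannot be told apart from a dye bias of the probe.

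The stage difference of TBP did not pass the test over biological replicates. The means were 0.11 ± 0.12 in larvae and -0.48 ± 0.09 in nymphs (SD, n = 2). The log2 difference was 0.60 with a standard error of 0.24 and a 95% interval of 0.01 to 1.18 before adjustment, and the adjusted p over all features was 0.117 (limma). In that test 28.2% of the features passed. The authors left out the repeat array of nymph replicate 2 for this probe, the nymph array with the highest value, which raises the difference. With the authors' left-out arrays set to missing, 9539 of the joined probes kept a value in every replicate. On these the log2 difference of TBP was 0.68 (limma, adjusted p = 0.0967), and 11% of them passed. The smallest p of an exact test of 2 against 2 replicates is 0.333, so no test of the probe on its own was made. The 1.60-fold difference in the authors' deposited table is the plain difference of means over the 7 arrays used, technical repeats weighted like separate samples.

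For RiboL4 the difference was smaller, of opposite sign, and did not pass. On the larva arrays its log2 ratio was -0.17 and -0.23 in replicate 1 and -0.40 and -0.27 in replicate 2. On the nymph arrays it was 0.15 and -0.05 in replicate 1 and -0.05 and -0.19 in replicate 2. The lowest nymph array lay below the highest larva array, so the arrays of the stages overlapped in the ratios as deposited. They did not overlap with each array centred on its median, where larva arrays of RiboL4 ran from -0.62 to -0.43 and nymph arrays from -0.14 to 0.21 (all features), or from -0.41 to -0.25 and from -0.13 to 0.21 (joined features). How many features separate as fully in this direction was not counted, so the separation is not a trait of RiboL4. Means were -0.26 ± 0.10 in larvae and -0.04 ± 0.12 in nymphs (SD, n = 2). The log2 difference of -0.23 had a standard error of 0.24 and an adjusted p of 0.511 (limma). Its 95% interval before adjustment ran from -0.81 to 0.36, so these arrays do not show that RiboL4 is level between the stages.

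Replicates of both probes lay closer together than those of most features. The SD of the replicate means, pooled over the stages, was 0.11 for each of them, against a median of 0.26 over the features, and 12.9% of the features had a lower value than TBP and 14.2% a lower one than RiboL4. The gap between larva replicates was 0.16 for TBP and 0.14 for RiboL4, and that between nymph replicates 0.13 and 0.18. Technical repeats of TBP differed by 0.34 in larva replicate 2 and by 0.35 in nymph replicate 2, more than in 67% and 62.6% of the features. For RiboL4 the largest gap between technical repeats was 0.20, in nymph replicate 1. In absolute size, 51.3% of the features had a smaller stage difference than TBP and 22.4% a smaller one than RiboL4.

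**Figure D4:**
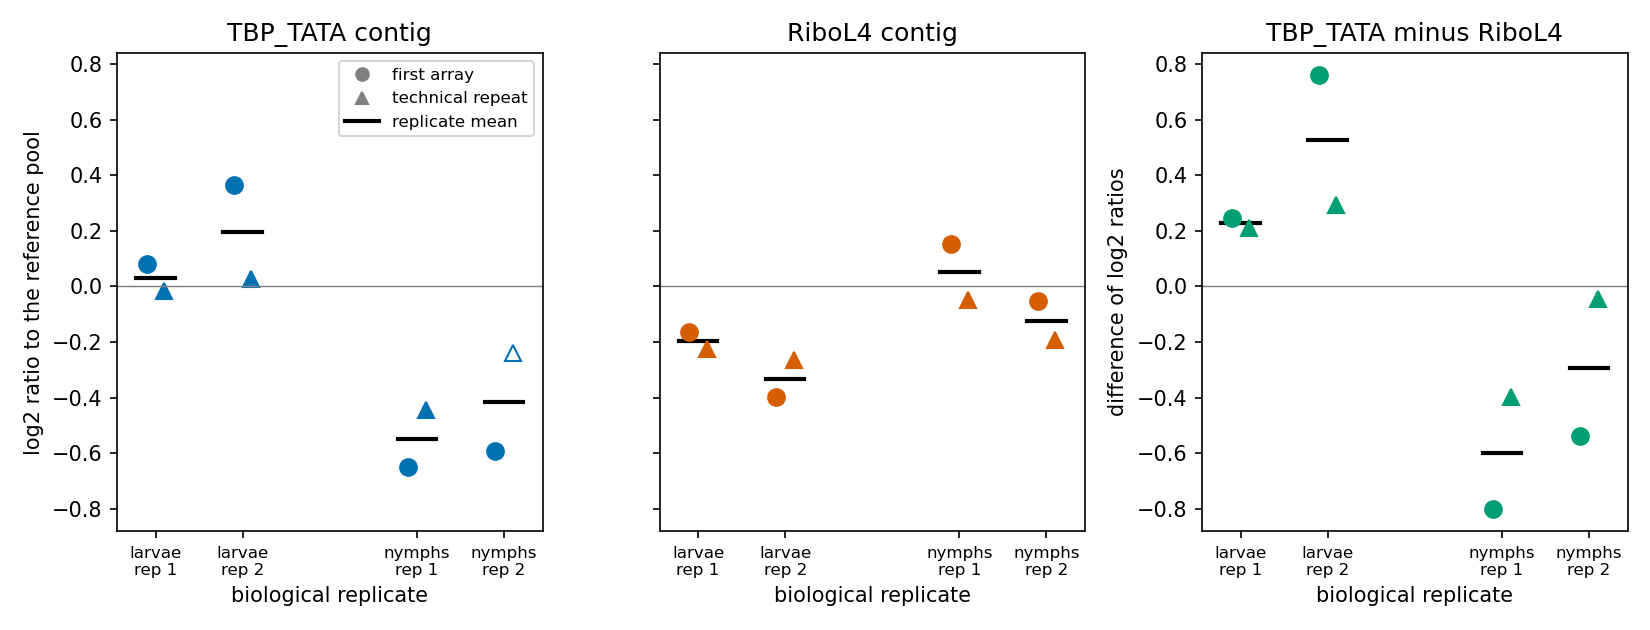
Log2 ratio to the reference pool of TBP and RiboL4 and the difference between both probes on the same array (y axes), for each biological replicate (x axis), with circles for first arrays, triangles for technical repeats, bars for replicate means and an open symbol for the array that the authors left out for TBP. In these ratios as deposited, TBP is higher on every larva array and RiboL4 overlaps between stages, and the difference is above 0.20 on every larva array and below -0.04 on every nymph array.

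The 2 probes did not keep a constant ratio between larvae and nymphs in these samples, although the change did not pass the adjusted threshold. On the same array, TBP minus RiboL4 was 0.24 and 0.21 in larva replicate 1 and 0.76 and 0.29 in replicate 2. In nymphs it was -0.80 and -0.40 in replicate 1 and -0.54 and -0.05 in replicate 2. The sign was positive on every larva array and negative on every nymph array, where the 4 arrays of a stage come from 2 biological replicates. The share of features that separate as fully relative to RiboL4 was not counted. Of the 4206 features that passed relative to RiboL4 (limma), 3667 were higher in larvae, so a difference in this direction was common. The means of TBP minus RiboL4 were 0.38 ± 0.21 in larvae and -0.45 ± 0.22 in nymphs (SD, n = 2). With each array set relative to its RiboL4 value, the stage difference of TBP was 0.82 on the log2 scale, with a standard error of 0.26, a 95% interval of 0.17 to 1.47 before adjustment and an adjusted p of 0.063 (limma), in a fit in which 31.3% of the features passed. It was 0.47 on the technical repeat arrays alone (limma, adjusted p = 0.316) and 1.17 on the first arrays alone (limma, adjusted p = 0.0425). A shift of a whole array cancels in this difference.

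Across the 5 groups, the probes moved in opposite directions in 7 of the 10 pairs of groups and in the same direction in 3, which are larvae against O, G against nymphs and S against nymphs. The pairs are built from 5 levels and are not independent, and 5 groups are too few for a correlation. How many other probes oppose either of these in as many pairs was not counted. The TBP to RiboL4 ratio was nearly equal in S and nymphs, where it differed by 0.01 on the log2 scale. It differed most between O and nymphs, by 1.34 on the log2 scale or 2.53-fold, and by 1.33 between S and O. A target read relative to TBP and the same target read relative to RiboL4 would differ by those amounts. In the authors' deposited tables, larvae against S was the 1 comparison of 7 in which both probes passed the adjusted p of 0.05, TBP being higher and RiboL4 lower in larvae, and there was none in which neither passed.

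Neither probe was among the closest to the other. The root mean square difference between their levels over the 5 groups was 0.53 on the log2 scale. Of the 10694 other probes, 36.2% lay closer to TBP than RiboL4 did and 48.4% lay closer to RiboL4 than TBP did. The median distance was 0.64 from TBP and 0.54 from RiboL4. Closest to TBP were Contig920 at 0.05 and CV442383 at 0.05, both also highest in O (0.68 and 0.68) and lowest in nymphs (-0.46 and -0.46). Closest to RiboL4 were Contig4282 at 0.03 and Contig3967 at 0.04. The files give these contigs and tags no gene name.

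Averaging the probes gave a span close to that of RiboL4 alone. The mean of TBP and RiboL4 spanned 0.50 on the log2 scale over the 5 groups, with an SD of 0.18 over the groups. A mean of probes that move in opposite directions is narrowed by the averaging, and it was not compared with means of other probes. The mean was highest in O at 0.24 and lowest in nymphs at -0.27, as TBP was. With each comparison centred on its median over the probes, the span of the mean rose to 0.63, that of TBP to 1.30 and that of RiboL4 to 0.52. Below the last of these values lay 5.24% of the probes, and below that of TBP 43.4%. Other probes moved far less than either. CV436785 spanned 0.09 and Contig6849 0.10 on the log2 scale, and both passed the adjusted p of 0.05 in 0 of the 7 comparisons in the authors' deposited tables. With 10695 probes ranked, the lowest spans are selected for being low, and no arrays of the coded groups were analysed here to repeat them.

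As references, the probes give different counts of features that pass between larvae and nymphs. With the ratios to the pool as deposited, 3793 of 13459 features passed an adjusted p of 0.05 (limma), of which 3002 had the higher value in larvae and 791 in nymphs. This balance depends on the scaling and on which features and arrays are fitted. It was 2375 and 1579 with each array centred on its median over all features, and 1746 and 1510 with quantile normalisation (limma). Centring on the joined features gave 2718 and 984 (limma). Without rescaling, the balance was 513 and 536 when only the arrays that the authors used were fitted, on the 9539 probes with a value in every replicate (limma). Setting an array relative to a probe subtracts that probe's value from every feature, so the probe's own stage difference, 0.60 for TBP and -0.23 for RiboL4, fixes the direction in which the balance shifts. With each array set relative to TBP, 5173 passed (limma), with 2095 on the larval side and 3078 on the nymphal side. With each array set relative to RiboL4, 4206 passed (limma), 3667 on the larval side and 539 on the nymphal side. Relative to the mean of both probes, 3796 passed (limma), 2597 and 1199 in the same order. Of the 3793 features, 75.7% also passed relative to TBP, 93.4% relative to RiboL4 and 89.3% relative to the mean. The features called relative to TBP held 55.5% that were among the 3793, those relative to RiboL4 84.2% and those relative to the mean 89.3%. All 4 fits use the same arrays, so these shares describe the scaling and are no independent evidence.

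The direction of both stage differences was kept when the arrays were rescaled, but the size was not. Array medians over all features lay between 0.20 and 0.32 on the larva arrays and between -0.07 and -0.05 on the nymph arrays. Over the features joined to a deposited fold change, the medians lay closer together. They were between 0.01 and 0.10 on the larva arrays and between -0.11 and -0.06 on the nymph arrays. With each array centred on its median over all features, the log2 difference of TBP was 0.29 and that of RiboL4 -0.53 (limma, adjusted p = 0.387 and 0.137). With quantile normalisation they were 0.38 and -0.47 (limma, adjusted p = 0.283 and 0.197). Centring on the features joined to a deposited fold change gave 0.49 and -0.34 (limma, adjusted p = 0.184 and 0.326). RiboL4 was thus the nearer to 0 with the ratios as deposited or centred on the joined features and TBP the nearer with the arrays centred on all features or quantile normalised, so which of both probes moved less between larvae and nymphs depends on the scaling.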

How the data were processed

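Samples were whole ticks hybridised on two-colour arrays. The authors deposited log2 ratios of sample (Cy5) over pool (Cy3) for 13459 features, per the labels, and 7 tables with log2 fold changes, signed linear fold changes (a score here) and adjusted p-values, 1 of them also with unadjusted p-values, per the file headers. Per the submitters' processing notes, limma was used. How spots were scanned, corrected, normalised and filtered is not given in the sources used here, so signal over background is unknown and the number of arrays limits the precision.

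The tables name probes and the ratios carry feature numbers. A probe was joined to the 1 feature for which the mean of some larva arrays minus the mean of some nymph arrays equalled its larvae against nymph log2 fold change within 1.2e-09. This joined 10658 of 10695 probes, TBP on 7 arrays and RiboL4 on 8. With shifted fold changes, 21 to 29 probes matched by chance. The deposited comparisons were additive within 4.8e-08.

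Technical repeats were averaged, and stages were compared in R 4.3.3 (limma 3.58.1, functions lmFit and eBayes), adjusting p-values by Benjamini-Hochberg over all features, with a threshold of 0.05. The script was tested on simulated data. Alternatives were other treatments of technical repeats, other scalings, the authors' probes only, robust moderation, the replicate number as a block, leaving out each replicate, stricter thresholds and other sets of groups. RefSeq's gene table (assembly USDA_Rmic) held 0 of the probe names, and no genome position is given.

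Named besides the 2 members were the other contigs with a gene word, the 2 probes nearest to each member and the 2 with the smallest span. Members, lists and rules were chosen with earlier results of these data known. Marker lists could not be set, for lack of gene names.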

Additional observations from a re-analysis of the deposited data

How the results depend on the processing

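Centring on the joined features was chosen after seeing the data. TBP passed the threshold with all arrays as independent (log2 difference 0.60, limma adjusted p = 0.0138) and with replicates as a random block (0.60, adjusted p = 0.0409), within an adjusted p of 0.0138 to 0.422 over its 14 alternatives. RiboL4 passed in none of its 14 (limma adjusted p 0.137 to 0.812). TBP minus RiboL4 passed with arrays as independent (0.82, limma adjusted p = 0.0106), a random block (0.82, 0.0283) and first arrays only (1.17, 0.0425), within 0.0106 to 0.316. No stage difference changed sign. Without 1 replicate, TBP lay between 0.51 and 0.68, RiboL4 between -0.32 and -0.14 and their difference between 0.67 and 0.98. Those fits take the spread of the remaining sample from the other stage.

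The labels do not tie equal replicate numbers together, and deviations under equal numbers correlated at -0.03 across features. The replicate block gave adjusted p of 0.16 for TBP (0.60), 0.558 for RiboL4 (-0.23) and 0.0675 for their difference (0.82), all limma.

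The 3793 stage calls became 6058 with arrays as independent, 2408 on technical repeat arrays and 2206 at an adjusted p of 0.01. They were 1049 of 9539 with only the arrays that the authors used, on probes with a value in every replicate.

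The span of TBP was 1.30 with centred comparisons, 0.88 over the coded groups, 0.68 over larvae and nymphs and 0.68 without O. Less than TBP was spanned by 45.5% of probes over the coded groups and 69.1% over larvae and nymphs. RiboL4 spanned 0.45 over the coded groups, where 16.5% of probes spanned less. It spanned 0.23 over larvae and nymphs, where 27.6% of probes spanned less. In the order of settings given for the span of TBP, the mean of both spanned 0.63, 0.22, 0.22 and 0.32. TBP minus RiboL4 spanned 0.90 over larvae and nymphs and 0.90 without O. SDs over the 5 groups were 0.44 for TBP, 0.22 for RiboL4, 0.18 for the mean and 0.59 for the difference. Requiring 1.5-fold as well left 2 deposited calls for TBP and 0 for RiboL4, and as few or fewer for 36.8% and 11% of the probes. At an adjusted p of 0.01 there were 4 and 2, and as few or fewer for 70.1% and 37.5%. The median probe had 4 under either criterion. What caused these changes was not tested.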
